A study of Mus musculus with 6 samples.

Results

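Neurexins, neuroligins and related adhesion molecules of the nervous system were followed in MIN6, an insulin-producing cell line derived from a mouse beta cell tumour. All probe sets annotated to a single gene among Nrxn2, Nrxn3, Nlgn1, Nlgn2, Nlgn3, Cadm1, Robo1 and Astn1 were taken, which gave 22 of the 45101 probe sets on the array. The members were 2 probe sets for Nrxn2, 5 for Nrxn3, 2 for Nlgn1, 2 for Nlgn2, 3 for Nlgn3, 4 for Cadm1, 3 for Robo1 and 1 for Astn1. Signals were measured on 3 arrays of cells given TDP-43 siRNA and 3 arrays of cells given control siRNA. Both groups were MIN6 cells electroporated with 100 pmol of siRNA (1200 V, pulse width 20 ms), and 100 ng of total RNA from each sample was labelled with a kit that reads transcripts near the 3' end. TDP-43, encoded by Tardbp, is a nuclear RNA-binding protein that regulates splicing and RNA stability. The siRNA sequences and the time from electroporation to RNA extraction were not given in the sources used here. Nothing in the labels says that replicates came from separate cultures, so the p-values measure only the spread between these samples, which may be technical.

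Neurexins are presynaptic membrane proteins that bind neuroligins on the facing cell, and this bridge aligns the release machinery with the receptors across a synapse. Beta cells secrete insulin granules with much of the same machinery, and neurexins, neuroligins and the homophilic adhesion protein Cadm1 (also called SynCAM1) are known in islets, where contacts between beta cells affect secretion. Robo1 is a receptor for the secreted guidance cue Slit, and astrotactin-1 (Astn1) is a neuronal membrane protein first studied in the migration of young neurons along glia. In mouse brain, TDP-43 is known to bind the long introns of many synaptic genes, neurexins and neuroligins among them.

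MIN6 arrays carried the markers of a beta cell. All 8 beta cell markers with a probe set lay above the filter on low signals, which left out the dimmest 40% of probe sets (a mean signal under 41.5). Their summed signal ranged from 78452 to 84974 in TDP-43 siRNA arrays and from 79168 to 84659 in control siRNA arrays. Of 10 neuronal markers 9 lay above the filter, and the list summed to 20341 to 21618 in TDP-43 siRNA and 20079 to 20629 in control siRNA arrays. Its members lay on both sides: Nefm was at 7584 in TDP-43 siRNA and 6833 in control siRNA arrays and Gad1 at 267 and 200.5 in these groups, whereas Nefl was at 6599 in TDP-43 siRNA and 7012 in control siRNA arrays, with its groups apart. Only 2 of 6 markers of Schwann cells and glia lay above the filter (sums of 1306 to 1655 in TDP-43 siRNA and 1226 to 1490 in control siRNA arrays). The sums were mostly Mbp, at 1243 in TDP-43 siRNA and 1197 in control siRNA arrays. Sox10 was at 114 and 85.8 in these groups, and S100b, below the filter, at 17.8 and 9.14. For fibroblasts and stellate cells 2 of 8 lay above the filter, with sums of 229.7 to 301 in TDP-43 siRNA and 276 to 389 in control siRNA arrays. Acta2 was at 119 and 116 in these groups. Col1a2 was at 56.2 and 93.9, with its groups apart (limma adjusted p = 0.312 over genes). The mean of Dcn, below the filter, was 3.63 and 13.3. Of the other markers below the filter, Pdgfrb was lower too (10.1 and 29.7), whereas Pdgfra was higher (11.9 and 3.49). Col1a1 was at 34.4 and 36.2, Col3a1 at 14.3 and 16.5 and Lum at 25.2 and 26.8 in these groups. For endothelial and immune cells 4 of 8 lay above the filter (sums of 282.8 to 345 in TDP-43 siRNA and 219 to 339 in control siRNA arrays). Ptprc, below the filter, was at 9.94 in TDP-43 siRNA and 6.90 in control siRNA arrays. Other islet endocrine markers summed to 8798 to 9624 in TDP-43 siRNA and 8260 to 11633 in control siRNA arrays, mostly Gcg, and 5 of 8 lay above the filter. Single markers behind these sums differed more. Sst was at 62.4 in TDP-43 siRNA and 25.1 in control siRNA arrays (limma adjusted p = 0.320 over genes). Its control siRNA mean lay under the filter limit, so it was tested only because its TDP-43 siRNA arrays were higher. The beta cell marker Slc30a8 was at 9082 and 7656 in these groups (limma adjusted p = 0.119). Both had groups apart, as did 18.3% of all genes. For acinar and duct cells 4 of 8 markers lay above the filter, mostly the keratin Krt7. Their list summed to 5337 to 6505 in TDP-43 siRNA and 5826 to 6476 in control siRNA arrays. Cpa1 was at 2.75 in TDP-43 siRNA and 3.65 in control siRNA arrays. The part of any of these lists in the values below was not tested.

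The siRNA lowered its target. The brightest Tardbp probe set, 1423723_s_at, read 2257, 2249 and 1836 in TDP-43 siRNA arrays, against 3748, 3940 and 3699 in control siRNA arrays, and all 5 Tardbp probe sets fell, with log2 differences from -1.41 to -0.85 (limma adjusted p from 0.000515 to 0.00515). Over all probe sets above the filter, 158 of 27022 changed, or 0.585%, with 35 higher (0.130%) and 123 lower (0.455%). That count was between 56 and 77 when any array other than control siRNA replicate 3 was left out, and 325 without control siRNA replicate 3. RNA quality was read from control probe sets at the 3' end against those at the 5' end, in log2 units. TDP-43 siRNA minus control siRNA arrays gave 0.02 for this measure on Gapdh and -0.03 on b-actin (two-sided exact permutation tests, p = 0.4 and p = 0.2), where 3 arrays against 3 cannot go below 0.1. Arrays correlated at 0.985 to 0.991 across genes.

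Of the 22 member probe sets, 12 lay above the filter and were tested, and they represent every member gene except Nlgn3. None of the 12 passed the limma test at an adjusted p of 0.05 over all probe sets, where 0.585% of all probe sets did. At an unadjusted p below 0.05 there were 4 (Astn1, Robo1 and 2 of the 4 Cadm1 probe sets), where 11.3% of all probe sets were. The standard errors of the 12 differences ran from 0.06 to 0.51 log2 units, so precision differed widely between members: it was best for the bright Cadm1 probe sets and poorest for Nrxn3. Of the 12, 9 lay higher and 3 lower in TDP-43 siRNA arrays. In 4 of them (33.3%) all TDP-43 siRNA arrays read above all control siRNA arrays, against 8.74% of all probe sets, and in 0 did they read below, against 8.45% (17.2% of all probe sets were apart in either direction). With the brightest probe set of each gene, 3 of the 7 tested member genes (Cadm1, Astn1 and Nlgn1) had groups apart, against 18.3% of all genes. Of the 12, 1 passed the filter only through its TDP-43 siRNA arrays, the Nlgn1 probe set, so its groups had to differ. Without it 3 of 11 probe sets (27.3%) and 2 of 6 genes had groups apart. The 4 probe sets include 2 of 1 gene, Cadm1, and the member genes were chosen with results of these data known, so the shares are given as a description. Signals of different probe sets depend on their probes and are not compared with one another as transcript levels.

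**Figure D1:**
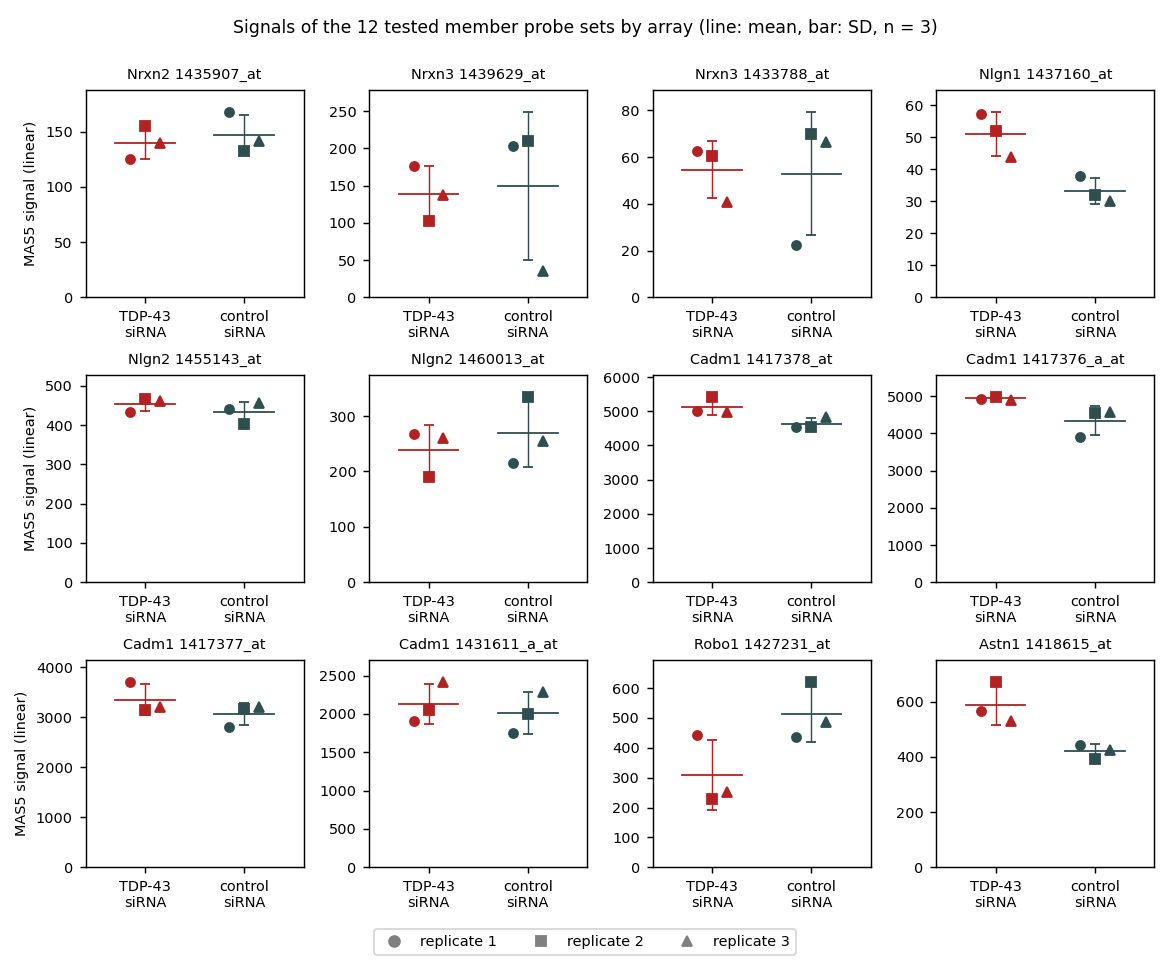
MAS5 signal (linear scale, from 0) of the 12 member probe sets above the filter, by array, with TDP-43 siRNA at the left and control siRNA at the right of each panel; markers are replicates 1 to 3, horizontal lines are means and bars are SD (n = 3). The 2 groups are apart for Astn1, Nlgn1 and the Cadm1 probe sets 1417376_a_at and 1417378_at, whereas 1 TDP-43 siRNA array of Robo1 (442) sits among the controls and 1 control array of Nrxn3 1439629_at (34.7) sits far below the others.

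No change was detectable in the neurexins. Nrxn2 codes for a neurexin made in a long form with a large extracellular part and a short form with only its last ligand-binding domain. The brighter Nrxn2 probe set, 1435907_at, read 125, 155 and 139 in TDP-43 siRNA arrays and 168, 132 and 141 in control siRNA arrays. The groups overlapped, and the log2 difference was -0.07 (SE 0.15, 95% confidence interval from -0.40 to 0.27, limma adjusted p = 0.915). In this bulk measurement fewer cells with a transcript and less transcript per cell cannot be told apart. The second Nrxn2 probe set, 1455499_at, lay below the filter and read 7.43, 36.3 and 13.6 in TDP-43 siRNA arrays against 4.06, 2.71 and 6.97 in control siRNA arrays. Its TDP-43 siRNA arrays were all higher, but every one of these signals is below the mean of 41.5 that the filter required, and the difference of 0.81 on the log2(signal + 12) scale is given without a test.

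Nrxn3, the neurexin whose gene is the longest among the members, had 5 probe sets, of which 2 were tested. On 1439629_at the TDP-43 siRNA arrays read 177, 102 and 137, and the control siRNA arrays 204, 210 and 34.7. Control siRNA replicate 3 was thus the lowest of all arrays and the other 2 controls the highest. The log2 difference was 0.18 (SE 0.51, 95% confidence interval from -0.96 to 1.31, limma adjusted p = 0.936), and its direction rested on that array: without control siRNA replicate 3 it was -0.57 (SE 0.21, limma adjusted p = 0.271). The other tested probe set, 1433788_at, read 62.6, 60.6 and 40.8 in TDP-43 siRNA arrays and 22.6, 69.8 and 66.4 in control siRNA arrays. Here control siRNA replicate 1 was the low array, and the log2 difference of 0.12 (SE 0.34, limma adjusted p = 0.935) turned to -0.28 without it. The 2 probe sets therefore took their outlying control value from different arrays. Their changes differed by -0.05 (SE 0.78, limma adjusted p = 0.9997 over 10814 pairs of probe sets), an interval from -1.90 to 1.80 that allows either one to exceed the other by a wide margin. The remaining Nrxn3 probe sets, 1456137_at, 1432931_at and 1438193_at, averaged 13.3, 6.94 and 5.47 over all 6 arrays, with groups that overlapped.

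Neuroligins, the partners of neurexins on the facing membrane, were measured unevenly. Nlgn2, known from inhibitory synapses and from beta cells, had the clearest signal. Its probe set 1455143_at read 433, 467 and 461 in TDP-43 siRNA arrays and 441, 402 and 455 in control siRNA arrays. The groups overlapped, and the log2 difference was 0.07 (SE 0.10, 95% confidence interval from -0.15 to 0.28, limma adjusted p = 0.848). Among the members measured, this was one of the narrower intervals. The dimmer probe set 1460013_at read 268, 189 and 261 in TDP-43 siRNA arrays and 216, 334 and 256 in control siRNA arrays, again with overlap, at -0.15 (SE 0.18, limma adjusted p = 0.809). The changes on the 2 Nlgn2 probe sets, of opposite sign, did not differ past the threshold (difference -0.22, SE 0.23, limma adjusted p = 0.989 over pairs). Of the 5 pairs of member probe sets 0 had an unadjusted p below 0.05, where 6.99% of all pairs did.

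Nlgn1, the neuroligin typical of excitatory synapses, lay at the edge of the filter. Probe set 1437160_at had a mean of 42.2, the member nearest above the limit of 41.5, and the nearest below it was a Robo1 probe set at 28.3. It read 57.3, 52.0 and 43.8 in TDP-43 siRNA arrays and 37.9, 31.9 and 30.2 in control siRNA arrays. All 3 TDP-43 siRNA arrays were higher than all 3 control arrays, by a log2 difference of 0.47 (SE 0.24, 95% confidence interval from -0.05 to 0.999), which did not pass (limma adjusted p = 0.485). Its control siRNA arrays alone would have put it below the limit, so the probe set was tested only because its TDP-43 siRNA arrays were higher. The second Nlgn1 probe set, 1421648_at, read 26.0, 2.09 and 2.09 in TDP-43 siRNA arrays and 12.6, 19.6 and 1.43 in control siRNA arrays, a spread within each group larger than any difference between them.

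Nlgn3, which is found at both kinds of synapse in the brain, had no probe set above the filter. The means over all 6 arrays were 22.1 on 1456384_at, 9.63 on 1453756_at and 3.68 on 1436135_at. On the brightest of these the TDP-43 siRNA arrays read 31.3, 12.1 and 34.1 and the control siRNA arrays 20.1, 19.6 and 15.2. These values overlapped and lay below the array medians, which ran from 72.3 to 79.97, so a Nlgn3 transcript was not detectable above low signals here, and its absence is not shown. Across the 10 member probe sets below the filter single signals ran from 1 to 40.1, and in 9 of the 10 the groups overlapped.

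Cadm1, an immunoglobulin adhesion protein that binds copies of itself on neighbouring cells, was the member measured most precisely, and all 4 of its probe sets had a slightly higher mean in TDP-43 siRNA arrays. On the brightest, 1417378_at, the TDP-43 siRNA arrays read 5006, 5416 and 4991 and the control siRNA arrays 4545, 4535 and 4821. The groups did not overlap, and the log2 difference was 0.15 (SE 0.06, 95% confidence interval from 0.02 to 0.28, limma adjusted p = 0.373). On 1417376_a_at the TDP-43 siRNA arrays were close together at 4935, 4976 and 4904, above control siRNA arrays at 3894, 4548 and 4580, with a difference of 0.19 (SE 0.07, limma adjusted p = 0.338). Without control siRNA replicate 1 that difference was 0.11. The other 2 probe sets overlapped between groups. Probe set 1417377_at read 3705, 3149 and 3202 in TDP-43 siRNA arrays and 2804, 3173 and 3214 in control siRNA arrays (difference 0.13, SE 0.08), and without TDP-43 siRNA replicate 1 the difference was 0.054. Probe set 1431611_a_at read 1907, 2051 and 2416 in TDP-43 siRNA arrays and 1747, 1998 and 2285 in control siRNA arrays (difference 0.08, SE 0.11). The 3 other probe sets differed in their change from 1417378_at by 0.04, -0.02 and -0.07, none past the threshold (limma adjusted p = 0.9997 each over pairs). The 4 probe sets read 1 transcript pool on the same arrays and are not independent of one another. On 1417378_at a change above 0.28 on the log2 scale lies outside the unadjusted interval.

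Robo1, the Slit receptor, had the largest difference in size among the 12 tested probe sets, toward lower signal in TDP-43 siRNA arrays. Probe set 1427231_at read 442, 229 and 252 in TDP-43 siRNA arrays and 435, 620 and 488 in control siRNA arrays. TDP-43 siRNA replicates 2 and 3 were lower than every control array, whereas TDP-43 siRNA replicate 1 lay within the control range. On the Tardbp probe set 1423723_s_at TDP-43 siRNA replicates 1 to 3 read 2257, 2249 and 1836, and on 1428467_at 260, 323 and 233. Control siRNA arrays read 3699 to 3940 on the first and 610 to 720.1 on the second. A link between the Robo1 and Tardbp signals was not tested. The log2 difference of Robo1 was -0.76 (SE 0.22, 95% confidence interval from -1.26 to -0.26), and it did not pass over all probe sets (limma adjusted p = 0.216). Without TDP-43 siRNA replicate 1 it was -1.05 (SE 0.16) and passed (limma adjusted p = 0.0439). With any other array left out it lay between -0.87 and -0.59 and did not pass. The call thus depended on 1 array, while the direction was the same in all 6 of these fits.

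The other Robo1 probe sets lay below the filter and did not show lower signals. On 1445549_at the TDP-43 siRNA arrays read 33.0, 31.0 and 36.8 and the control siRNA arrays 7.09, 40.1 and 6.80, and on 1457407_at they read 36.4, 27.9 and 28.9 against 30.1, 24.2 and 22.3. Both pairs of groups overlapped, at signals under the filter limit.

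Astn1 had a single probe set, 1418615_at, and the smallest unadjusted p among the members (0.00166). It read 566, 671 and 530 in TDP-43 siRNA arrays and 444, 392 and 424 in control siRNA arrays. The lowest TDP-43 siRNA array was above the highest control array, and the log2 difference was 0.47 (SE 0.11, 95% confidence interval from 0.23 to 0.72), equal to a 1.39-fold higher value of signal + 12. It did not pass over all probe sets (limma adjusted p = 0.121), nor over all genes with 1 probe set for each gene (limma adjusted p = 0.0919). With 1 array left out at a time it lay between 0.38 and 0.54 and passed in 0 of 6 fits. Astn1 and Nlgn1 differed by the same amount on the log2 scale, but the standard error of Nlgn1 was 0.24 against 0.11 for Astn1.

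**Figure D2:**
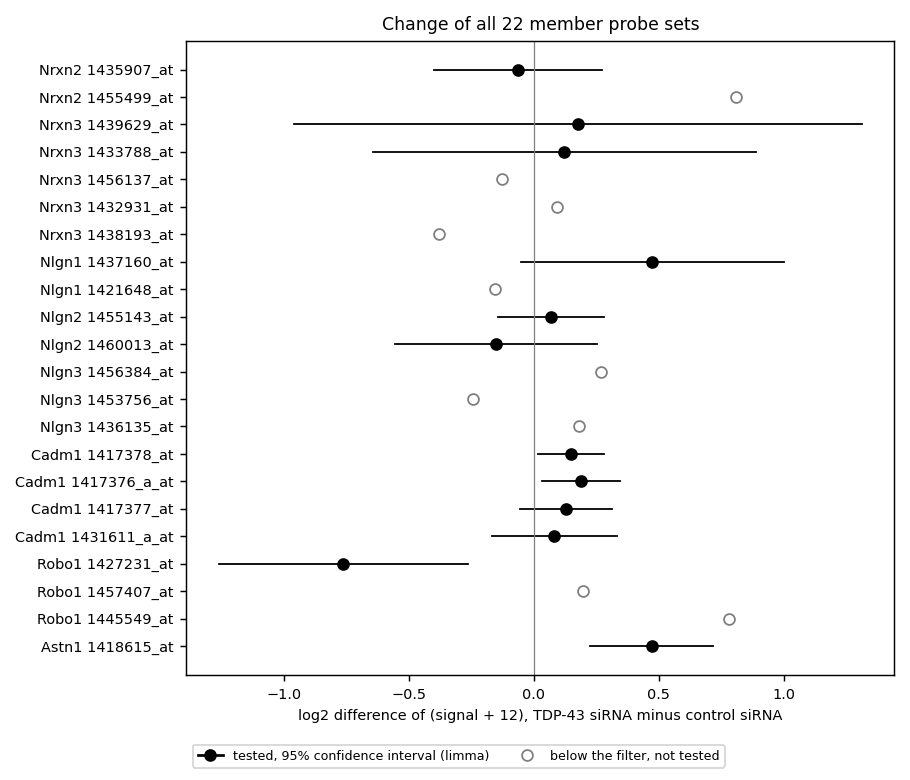
Log2 difference of (signal + 12), TDP-43 siRNA minus control siRNA, for all 22 member probe sets; filled points with bars are the 12 tested ones with unadjusted 95% confidence intervals from limma, open points are the 10 below the filter, with no test. The intervals of Astn1, Robo1 1427231_at and 2 Cadm1 probe sets leave out 0 before adjustment, and those of Nrxn3 are the widest.

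**Figure D3:**
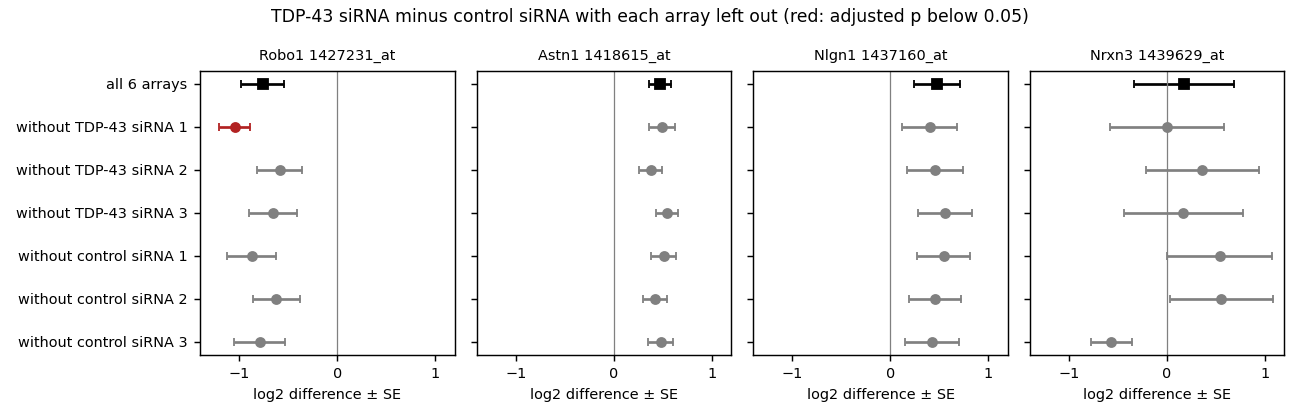
Log2 difference with its standard error for 4 member probe sets with all 6 arrays (black squares) and with each array left out in turn (circles; red where the limma adjusted p is below 0.05). Robo1 passes in 1 fit, the one without TDP-43 siRNA replicate 1 (-1.05), Astn1 and Nlgn1 stay above 0 in all 6, and Nrxn3 1439629_at turns to -0.57 without control siRNA replicate 3. Nlgn1 passed the filter only through its higher TDP-43 siRNA arrays.

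The member genes differ in size, a property that the choice of probe sets did not use. With introns included, and by the RefSeq table for GRCm38.p6, Nrxn3 spans 1612 kb, Robo1 1020.0 kb, Nlgn1 911 kb, Cadm1 332 kb, Astn1 330 kb and Nrxn2 114 kb. The short ones are Nlgn3 at 22.2 kb and Nlgn2 at 14.7 kb. Of the 12556 tested genes with a span in that table, 0.0398% were longer than Nrxn3, 0.215% longer than Robo1 and 2.39% longer than Astn1, whereas 64.4% were longer than Nlgn2. Among the long members, Robo1 had a lower mean in TDP-43 siRNA arrays, Astn1 and Cadm1 a higher one. Nlgn1 also had a higher mean, but it passed the filter only through its TDP-43 siRNA arrays, so its direction was fixed by the filter. The sign of Nrxn3 turned with single arrays left out.

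The extracellular partners of neurexins and other synaptic organizers contained 1 gene that passed. Of 46 genes in this list 44 had a probe set naming only that gene and 33 were tested with 1 probe set each. Of these 1 rose and 0 fell, where 0.745% of all 12619 genes passed (0.166% higher and 0.578% lower). Slitrk6, a leucine-rich repeat membrane protein of the Slitrk family of synaptic organizers, read 3273, 3355 and 2984 in TDP-43 siRNA arrays against 2356, 2532 and 2002 in control siRNA arrays. All TDP-43 siRNA arrays were higher, with a log2 difference of 0.48 (SE 0.09, limma adjusted p = 0.0474 over genes). The value is close to the threshold: over all probe sets it was 0.0553, and it passed in 1 of 6 fits with an array left out, the one without control siRNA replicate 3 (limma adjusted p = 0.0352).

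Groups were apart in 6 of the 33 tested genes of this list of neurexin partners and synaptic organizers, where 18.3% of all genes had groups apart. Slitrk6 was among them, and those named next did not pass in the fit of all 6 arrays. Ntrk3, the receptor tyrosine kinase TrkC that also binds a presynaptic receptor phosphatase, was at 0.82 (limma adjusted p = 0.0945), with 132, 122 and 155 in TDP-43 siRNA arrays and 64.2, 64.4 and 89.9 in control siRNA arrays. It passed in 1 of 6 fits with an array left out, the one without control siRNA replicate 3 (limma adjusted p = 0.0439). Its other tested probe set, 1422329_a_at, was at -0.06. C1ql3, a secreted C1q-like synaptic organizer, was at 0.53 (limma adjusted p = 0.119), and its 2 other probe sets were at 0.38 and 0.27. It passed with the replicate number as a block (limma adjusted p = 0.0198) and without both arrays numbered 3 (0.0197). Clstn1, a calsyntenin, was at 0.25 (limma adjusted p = 0.181), and its second probe set was at 0.28. Within this list 24 genes lay above 0 and 9 below, and the median was 0.11, beside 0.02 for all genes.

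The scaffolds that bind the cytoplasmic ends of neurexins, neuroligins and Cadm1 included no gene that passed among 24 tested of 32, where 0.745% of all genes did. At an unadjusted p below 0.05 there were 6 (12.6% of all genes were), and the median was 0.08. The 4 with the smallest p were Cask, a kinase-like scaffold that binds the neurexin tail, and the Lin7 proteins, which bind Cask. Lin7c was at 0.19 (limma adjusted p = 0.189), Lin7b at 0.44 (0.208), Cask at 0.25 (0.318) and Lin7a at -0.92 (0.298). For Lin7a the TDP-43 siRNA arrays read 28.1, 26.8 and 67.8 and the control siRNA arrays 79.7, 57.6 and 118, which overlap. The TDP-43 siRNA mean of 40.9 lay under the filter limit of 41.5. Lin7a was thus tested only because its control siRNA arrays were higher. Another well-measured probe set of Cask, 1422519_at, was at -0.01, so the higher values on the brightest Cask probe set were not shared by it.

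Among genes of Slit and Robo guidance 0 of 16 tested passed, where 0.745% of all genes did. At an unadjusted p below 0.05 there was 1 (12.6% of all genes were), and the median was 0.10. That 1 was Enah, an actin regulator of the Ena/VASP family, at 0.16 (limma adjusted p = 0.317). Its second brightest probe set was at 0.36, its 4 others between -0.11 and -0.04, and the mean of its probe sets gave 0.03. Nck1, an adaptor, was at 0.12 (0.07 to 0.14 with single arrays left out). The syndecan Sdc1 was at 0.15 (0.07 to 0.20), and another of its probe sets, 1415943_at, at 0.25 with its groups apart (limma adjusted p = 0.353 over probe sets). Its probe sets 1415944_at and 1448158_at were at -0.01 and 0.20 with overlapping groups. The kinase Abl1 was at -0.23, but at -0.04 without control siRNA replicate 2 and at -0.01 with its probe sets averaged, and its other tested probe set was at 0.21. Of the nectins and relatives of Cadm1, 0 of 7 passed (0 at an unadjusted p below 0.05), with Afdn, the cytoplasmic partner of nectins, at 0.24, Pvr at 0.23, Nectin1 at 0.24 and Nectin3 at 0.09, and the median of the list was 0.10. These are values of the brightest probe set of each gene. The other tested Pvr probe sets were between -0.03 and 0.26, with overlapping groups. Another Nectin1 probe set of nearly the same mean signal, 1438421_at, read 122, 126 and 99.2 in TDP-43 siRNA arrays and 72.9, 69.2 and 65.1 in control siRNA arrays. Its groups were apart, with a log2 difference of 0.65 that did not pass (SE 0.17, limma adjusted p = 0.165 over probe sets), though it lay below 0.05 unadjusted. For Nectin3, 1457257_x_at was at 0.45 with overlapping groups (limma adjusted p = 0.350), and the 4 other tested probe sets were between -0.07 and 0.06.

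In the list of astrotactin and other neural adhesion genes, mostly of the immunoglobulin type, 21 were tested, and Astn2 was not among them. Of these 0 passed the threshold, where 0.745% of all genes did. At an unadjusted p below 0.05 there was 1 (12.6% of all genes were), and the median was 0.08. That 1 was Dscaml1, a homophilic adhesion protein of the nervous system, which read 112, 88.5 and 89.8 in TDP-43 siRNA arrays and 31.5, 61.0 and 56.7 in control siRNA arrays. The groups were apart, and the log2 difference was 0.85 (SE 0.25, limma adjusted p = 0.177). The other Dscaml1 probe sets lay below the filter, with mean signals from 3.31 to 15.3 and overlapping groups. Negr1 was at 0.18 (0.10 to 0.25 with single arrays left out) and Cntnap2, a relative of neurexins, at 0.13. Sdk1 was at 0.35, but at 0.16 without control siRNA replicate 1, and its other probe set was at 0.09. In all 5 lists the median lay above the 0.02 of all genes. The lists share the arrays, and the difference of their medians from that of all genes was not tested.

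**Figure D4:**
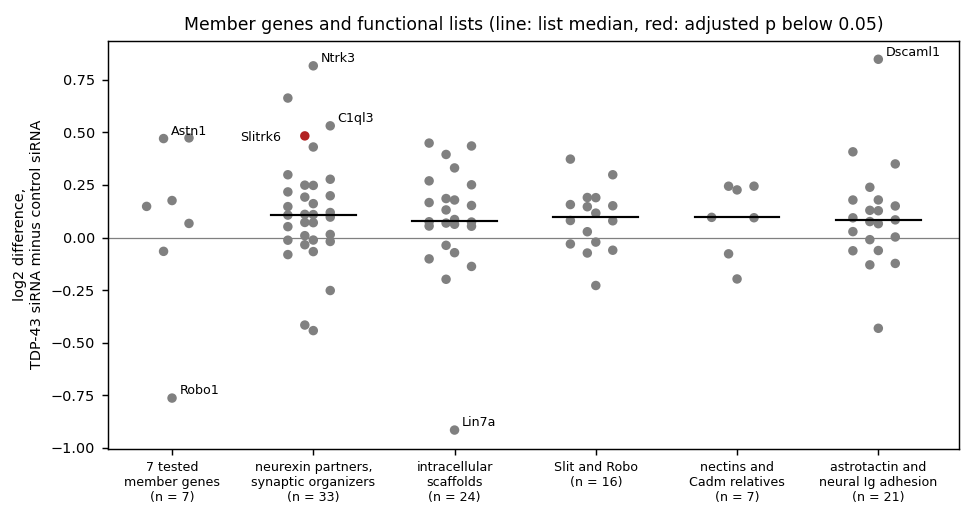
Log2 difference, TDP-43 siRNA minus control siRNA, for the 7 tested member genes and the tested genes of 5 functional lists, 1 probe set a gene; horizontal lines are list medians and red marks a limma adjusted p below 0.05. Slitrk6 (0.48) is the 1 red point, Robo1 (-0.76) is the lowest member and Lin7a (-0.92) the lowest of all genes drawn. Lin7a passed the filter only through its higher control siRNA arrays.

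For each member the gene with the most similar pattern over the 6 arrays was found by Pearson's r of the log2 values, as a description over samples that share their 2 groups. These genes were Zmym1 for Nrxn2 (r = 0.981), Polr2i for Nrxn3 (0.994), Cdc37l1 for Nlgn1 (0.991), Slc1a5 for Nlgn2 (0.994), Pcif1 for Cadm1 (0.996), Trp53i11 for Robo1 (0.994) and Rab6b for Astn1 (0.993). Between 13 and 50 of the 12618 other genes had r above 0.95 with a given member, so with 6 arrays such values are easily reached. Rab6b was also higher in TDP-43 siRNA arrays, at 0.49 (limma adjusted p = 0.147), close to the 0.47 of Astn1, while Trp53i11 was at -0.22 where Robo1 was at -0.76.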

How the data were processed

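The deposited table holds signal intensity on a linear scale, made by the authors with MAS5, as the submitters' processing notes record. Its version was not given in the sources used here. MAS5 subtracts a background taken from mismatch probes, which makes low signals variable. Without the highest and lowest 2% of values, each array's mean lay close to 500 (499.864 to 499.867), so the arrays had been scaled to a common target. Gene names come from the platform annotation (34945 with 1 gene, 932 with several, 9160 unlisted, 64 controls), with symbols updated by Entrez number.

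The value 12 (the 20th percentile, rounded) was added before log2. Controls and the dimmest 40% of probe sets by mean signal were left out, leaving 27022 probe sets and 12619 genes (brightest single-gene probe set). The test was limma 3.58.1 (R 4.3.3, intensity trend, two-sided, Benjamini-Hochberg, threshold 0.05). Pairs of probe sets of a gene were tested as differences. Confidence intervals are 95% and unadjusted. The number of arrays limits the precision. Figures were drawn with matplotlib 3.10.9.

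Members, lists and tests were chosen with earlier results of these data known. The text names every member probe set, Tardbp, the 4 genes with the smallest p of each list, 1 most similar gene for each member, and markers. Alternatives were other pseudocounts, filters, scalings, variance models, weighted arrays, averaging the probe sets of a gene, a replicate block and arrays left out. On simulated data for TDP-43 siRNA against control siRNA over 27022 probe sets, 21% of 100 probe sets changed by 0.5 and 63% of 100 changed by 1 were recovered, with 1 unchanged probe set called. Over 10814 pairs, 65% of 200 changed by 1 were recovered, with 4 unchanged pairs called.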

Additional observations from a re-analysis of the deposited data

How the results depend on the processing

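None of the 12 tested member probe sets and none of the 7 tested member genes passed under any alternative except 1, without TDP-43 siRNA replicate 1, where Robo1 did; with single arrays left out these 2 counts therefore ran from 0 to 1. The count of member probe set pairs that differ stayed at 0. Over everything tested, the counts moved far more: with single arrays left out they ran from 56 to 325 probe sets and from 31 to 253 genes, and without both arrays numbered 3 they were 241 probe sets and 214 genes. With no filter on low values 69 probe sets and 51 genes passed, without the intensity trend 0 probe sets (2896 at an unadjusted p below 0.05 in limma) and 12 genes, with array weights 161 genes, and after averaging the probe sets of each gene 61 genes. Among neurexin partners and synaptic organizers the count was 0 with no filter, with quantile normalization, without the intensity trend and with the mean of probe sets, 2 with the replicate block and 2 without both arrays numbered 3, and 0 to 3 with single arrays left out; among scaffolds it was 0 to 1 with single arrays left out. Each cause was not tested.

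The sign of 5 member probe sets turned, none past the threshold. Nrxn3 1439629_at was at -0.11 with array weights, at -0.57 without both arrays numbered 3, and from -0.57 to 0.56 with single arrays left out; the ranges were -0.28 to 0.34 for Nrxn3 1433788_at, -0.14 to 0.026 for Nrxn2 1435907_at, -0.29 to 0.012 for Nlgn2 1460013_at and -0.015 to 0.18 for Cadm1 1431611_a_at. Robo1 lay between -1.05 and -0.59, Astn1 between 0.38 and 0.55 (lowest limma adjusted p = 0.0765) and Nlgn1 between 0.30 and 0.60 under the alternatives that kept each. Deviations of same-numbered arrays from their group means correlated at -0.12, -0.14 and 0.24, and those of differently numbered arrays at -0.18 to 0.30. With 3 arrays in each group these values cannot settle whether replicate numbers pair the arrays. The replicate block called 0 member probe sets, as the main fit did. Over all genes it called 123, where the main fit called 94. Scaling moved the median of all probe sets from 0.006 to 0.004 (quantile) or -0.002 (median centring).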
